A study of Mus musculus with 9 samples.

Results

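The genes described here are 9 genes known to respond to glucocorticoids: Zbtb16, Cebpb, Cebpd, Fkbp5, Tsc22d3, Sgk1, Klf9, Errfi1 and Pdk4. They are 9 of the 24421 genes in the count table of main olfactory epithelium (MOE) from mice lacking TAAR enhancer 1 and their controls. The enhancer is a conserved element between Taar1 and Taar2 in the Taar cluster, whose genes encode receptors for amines, most of them olfactory. The set was picked from measured values. Zbtb16 and Cebpb were chosen by their difference between homozygous and heterozygous animals in these same libraries, and the other 7 were taken as classic glucocorticoid targets. All 9 passed the filter on low counts, which 20213 genes passed.

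RNA-seq was performed on whole MOE, with polyA selection, from 3 wild type, 3 heterozygous and 3 homozygous mice labelled as strain C57BL/6 at postnatal day 14, which the study describes as littermates. The reporting notes of the study give older animals and a mixed strain background for this line, so that age and strain are those of the labels and are not settled here. The deletion had been made by CRISPR-Cas9 in zygotes, and the animals of the enhancer 1 line carry 1 established deletion allele, so that line and deletion cannot be told apart. Wild type mice carry no copy of the deletion, heterozygous mice carry it on one allele and homozygous mice on both, and no agent was given, glucocorticoid included. Each library is 1 mouse as labelled.

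The libraries held 24583906 to 32631951 reads in genes, so that 3 reads correspond to 0.0919 to 0.122 CPM (read counts scaled to the library size), a floor that covers counting error only. Reads of Taar2 to Taar5, genes of the Taar cluster on one side of the deletion, numbered 227 to 337 in wild type, 158 to 176 in heterozygous and 1 to 3 in homozygous libraries, which fits the labels. The olfactory neuron marker Omp (3045 to 3550 CPM) and the sustentacular marker Cyp2g1 (2067 to 2333 CPM) were high in all 9. Vomeronasal receptor genes, of a separate nasal sense organ, stood out in 3 libraries, with 67.3 CPM for heterozygous replicate 1, 120 CPM for homozygous replicate 2 and 69.7 CPM for homozygous replicate 3, while the rest ranged from 14.5 to 17.3 CPM. Several values that rest on these 3 libraries are therefore also given without them or with vomeronasal receptor expression as a covariate.

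Glucocorticoids such as corticosterone bind the glucocorticoid receptor, encoded by Nr3c1, which is held in the cytoplasm by chaperones. Upon binding, the receptor enters the nucleus and acts on genes near its binding sites, palindromes of a short 6-letter site, in many tissues at once. Levels of the hormone vary over the day and with stress, and the induced genes include brakes on the pathway itself (Fkbp5, Tsc22d3), transcription factors (Zbtb16, Klf9, Cebpb, Cebpd) and regulators of metabolism and signalling (Sgk1, Errfi1, Pdk4). In bulk tissue, fewer cells of a type and less RNA per cell cannot be told apart.

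The palindrome the receptor is known to bind was searched for in promoters. Its letters were not used in the choice, but 7 of the genes were taken as classic glucocorticoid targets. The search is therefore not independent of the choice and is given as a description. RefSeq promoter windows of GRCm38.p6, from 250 bases before to 50 bases after a start site, were at hand for 7 of the 9 genes, in 15 windows, and not for Zbtb16 and Cebpd. Sgk1 has the most of these windows. The full palindrome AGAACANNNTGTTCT, where N is any base and which reads the same on both strands, was found in 3 of 32851 mouse windows (0.00913%). One of the 3 belongs to Sgk1, at chr10:21993640-21993939 on the plus strand. The shorter palindrome GNACANNNTGTNC, which each full palindrome contains, was found in 156 windows (0.475%), and among the 9 genes again in that Sgk1 window alone. The 6-letter site TGTTCT, searched on both strands (AGAACA) and contained in the full palindrome, is common, in 6233 windows (19% of all), and was in 4 of the 15 windows, 3 of Sgk1 and 1 of Tsc22d3. These are matches of letters within a short window and say nothing on binding in MOE. The Sgk1 window with the palindrome and the Tsc22d3 window (chrX:140600473-140600772, minus strand) are shown 5′ to 3′ with each 6-letter site in capitals.
Sgk1: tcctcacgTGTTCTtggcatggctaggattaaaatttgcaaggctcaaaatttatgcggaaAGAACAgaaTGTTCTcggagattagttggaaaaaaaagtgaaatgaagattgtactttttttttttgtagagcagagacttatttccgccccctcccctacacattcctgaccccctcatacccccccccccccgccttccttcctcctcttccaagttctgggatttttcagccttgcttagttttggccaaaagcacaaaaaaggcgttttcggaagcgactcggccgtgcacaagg
Tsc22d3: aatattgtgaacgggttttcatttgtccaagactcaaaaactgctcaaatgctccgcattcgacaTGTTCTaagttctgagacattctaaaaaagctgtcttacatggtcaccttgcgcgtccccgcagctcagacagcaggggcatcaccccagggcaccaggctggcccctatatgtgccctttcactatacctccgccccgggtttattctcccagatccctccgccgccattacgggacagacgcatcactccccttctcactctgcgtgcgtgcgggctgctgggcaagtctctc

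Zbtb16 encodes PLZF, a zinc finger transcriptional repressor, and lies on chromosome 9 (GRCm38, 48654297 to 48836222, minus strand). Its level was 8.75, 15.7 and 7.19 CPM in wild type replicates 1 to 3, 17.7, 14.03 and 13.1 CPM in heterozygous mice and 6.52, 2.15 and 3.37 CPM in homozygous mice. Each homozygous mouse was below every mouse of the other genotypes, and wild type replicate 2 lay among the heterozygous mice. These levels rest on 53 to 514 reads a library. The means were 10.5 ± 4.53, 14.9 ± 2.44 and 4.01 ± 2.25 CPM (SD, n = 3) for wild type, heterozygous and homozygous mice. Zbtb16 was the most variable of the 9 genes, with an 8.22-fold range over the 9 mice, and its standard deviation within genotypes (0.59 on the log2 CPM scale) was at the 99.3rd percentile of 16167 genes with a mean of at least 1 CPM.

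Zbtb16 was 0.380 times as high in homozygous as in wild type mice (log2 fold change -1.39, SE 0.31, 95% interval -2.06 to -0.72). The unadjusted p-value was 0.000482, and over all genes tested it did not pass the threshold of 0.05 (edgeR quasi-likelihood test, Benjamini-Hochberg adjusted p = 0.221). The adjusted p-value lay between 0.0364 and 0.925 over the alternatives. It was 0.0364, with a log2 fold change of -1.94, without homozygous replicate 1, the homozygous mouse with the highest Zbtb16. Without the 3 libraries with vomeronasal reads, of which the homozygous ones had the lowest Zbtb16 and the heterozygous one the highest, the log2 fold change was -0.71 (unadjusted p = 0.0496, edgeR adjusted p = 0.925), and 1 homozygous mouse then remained, assumed to vary like the other groups. In heterozygous against wild type mice the log2 fold change was 0.49 (SE 0.28, 95% interval -0.11 to 1.08, edgeR adjusted p = 1.00), and the interval includes 0. The comparison of homozygous with heterozygous mice, which chose the gene, gave -1.88 (SE 0.31, -1.06 without the 3 libraries) and is given as a description with no test. Since homozygous and heterozygous libraries entered that choice, the comparisons with wild type mice are not independent of it.

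Cebpb and Cebpd encode CCAAT/enhancer binding proteins, transcription factors of inflammation and fat cell differentiation. Cebpb, a single-exon gene on chromosome 2 (167688915 to 167690418, plus strand), was at 21.2, 18.1 and 16.6 CPM in wild type, 17.99, 15.01 and 16.2 CPM in heterozygous and 21.2, 28.6 and 28.0 CPM in homozygous mice. Homozygous replicates 2 and 3 were above all other mice, while homozygous replicate 1 and wild type replicate 1 were nearly level, at 21.2 CPM each to 3 digits. The means were 18.6 ± 2.32, 16.4 ± 1.499 and 25.9 ± 4.13 CPM (SD, n = 3) in wild type, heterozygous and homozygous mice. Cebpb was thus 1.39 times as high in homozygous as in wild type mice (log2 fold change 0.48, SE 0.12, unadjusted p = 0.000927), which did not pass after adjustment over all genes (edgeR adjusted p = 0.273). Over the alternatives the adjusted p ran from 0.0456, by DESeq2 without its independent filter on mean counts, to 0.925. The log2 fold change was 0.19 without the 3 libraries with vomeronasal reads, which leaves 1 homozygous mouse. With vomeronasal receptor expression as a covariate it was 0.22. It was -0.18 (SE 0.12) in heterozygous against wild type mice. In the comparison that chose the gene it was 0.66 (SE 0.12, and 0.44 without the 3 libraries), given with no test. As for Zbtb16, homozygous and heterozygous libraries entered the choice, so the comparisons of Cebpb with wild type mice are not independent of it.

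Cebpd, on chromosome 16 (15887286 to 15891031, plus strand), was at 15.9, 20.2 and 14.8 CPM in wild type, 34.9, 14.6 and 14.4 CPM in heterozygous and 17.1, 21.8 and 17.0 CPM in homozygous mice. One mouse, heterozygous replicate 1, stood far above the other 8, which lay between 14.4 and 21.8 CPM. The log2 fold change was 0.13 (SE 0.26, 95% interval -0.42 to 0.68) in homozygous and 0.32 (SE 0.25) in heterozygous mice against wild type. Without heterozygous replicate 1 the latter was -0.23, and the difference of homozygous from heterozygous mice turned from -0.20 to 0.36. Its within-genotype spread (0.46, log2 CPM scale) was second among the 9 genes, at the 98.3rd percentile.

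Both genes share exonic bases with a gene on the opposite strand. Exons of Tmem189 cover 312 of the 1504 exonic bases of Cebpb, and exons of Spidr cover 562 of the 3746 of Cebpd. The strand setting of the authors' counting is not given in the sources used here, so reads of these stretches may have been assigned to either gene or to none. Tmem189 ranged from 32.4 to 36.5 CPM and had a log2 fold change of 0.01 (SE 0.06) in homozygous against wild type mice, and Spidr ranged from 11.98 to 15.3 CPM with -0.07 (SE 0.10).

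**Figure D1:**
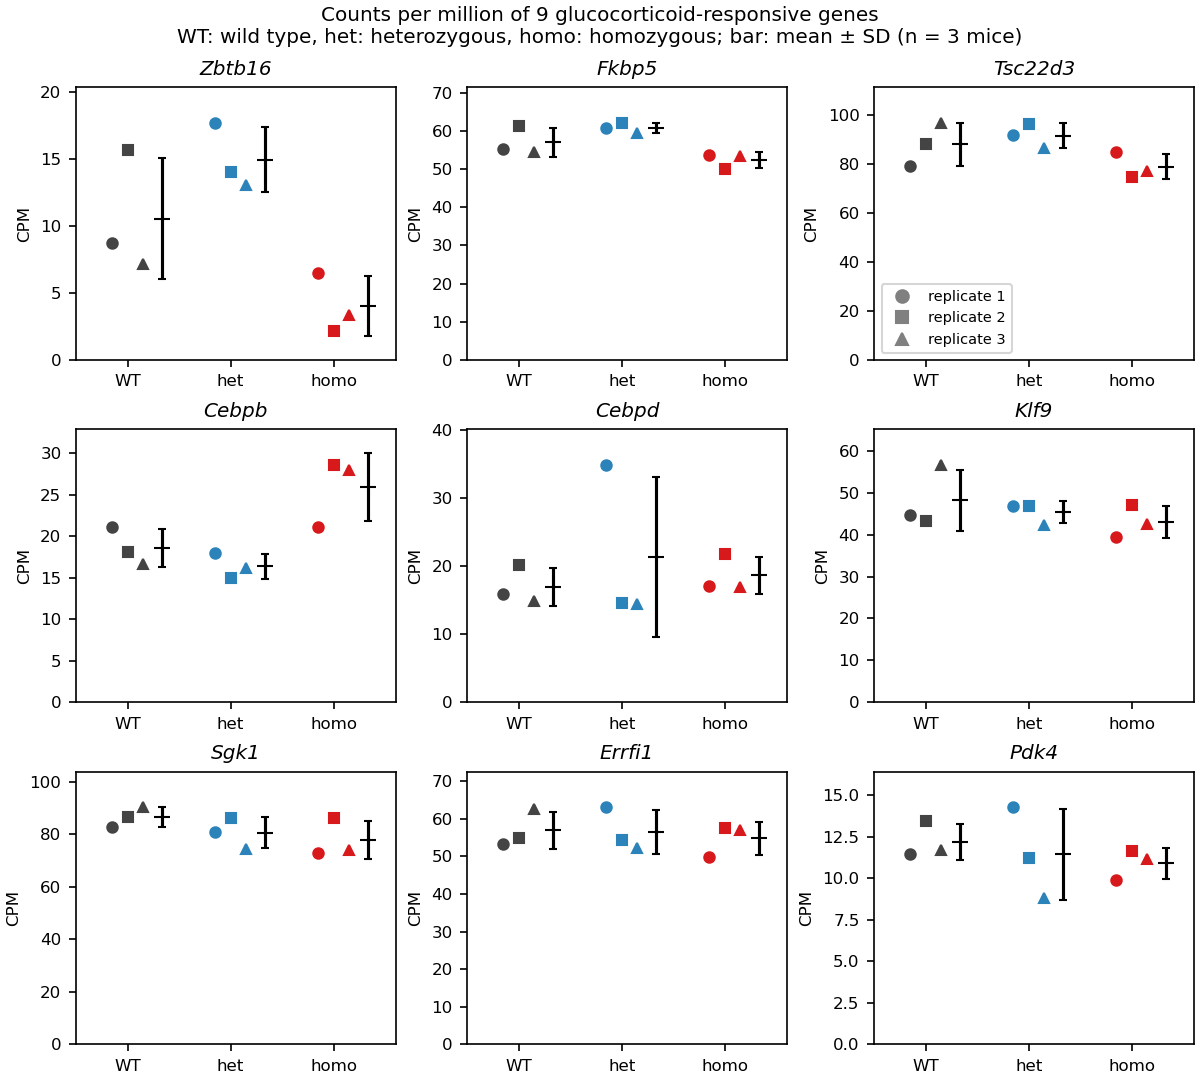
CPM of each of the 9 genes (vertical axes, from 0) in each mouse, by genotype (WT wild type, het heterozygous, homo homozygous), with marker shapes for replicate numbers and the mean ± SD of 3 mice beside the points. Zbtb16 lies between 2.15 and 6.52 CPM in homozygous mice and at 7.19 CPM or more in the others, Cebpd has 1 mouse at 34.9 CPM, and most of the other genes spread little.

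Fkbp5 and Tsc22d3 act as brakes on the hormone. Fkbp5 encodes FKBP51, a cochaperone that lowers the affinity of the receptor for its ligand, and lies on chromosome 17 (28399094 to 28517527, minus strand). It measured 55.2, 61.4 and 54.5 CPM in wild type, 60.7, 62.2 and 59.4 CPM in heterozygous and 53.7, 50.1 and 53.5 CPM in homozygous mice. All 3 homozygous mice were below the other 6, by little: the highest homozygous mouse had 53.7 and the lowest wild type mouse 54.5 CPM. The log2 fold change against wild type was -0.12 in homozygous mice (SE 0.06, unadjusted p = 0.0418, edgeR adjusted p = 0.522) and 0.09 in heterozygous mice (SE 0.05). Without the 3 libraries with vomeronasal reads, which leaves 1 homozygous mouse, the first value was -0.09. Fkbp5 was the steadiest of the 9 genes, with a within-genotype standard deviation of 0.07 on the log2 CPM scale, at the 28.4th percentile.

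Tsc22d3 encodes GILZ, a leucine zipper protein that carries anti-inflammatory effects of glucocorticoids, and lies on chromosome X (140539528 to 140600659, minus strand). It was at 79.4, 88.2 and 96.9 CPM in wild type, 91.8, 96.6 and 86.6 CPM in heterozygous and 84.8, 74.9 and 77.2 CPM in homozygous mice. The homozygous mice were below all heterozygous mice and overlapped with wild type replicate 1. The log2 fold change was -0.16 in homozygous (SE 0.07, unadjusted p = 0.0341, edgeR adjusted p = 0.507) and 0.06 in heterozygous mice (SE 0.07) against wild type. The difference in homozygous mice was -0.06 without the 3 libraries, with 1 such mouse left.

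Sgk1, a kinase that regulates ion channels and transporters, is the only one of the 9 genes on the chromosome of the Taar cluster. It lies on chromosome 10 (21882184 to 21999903, plus strand), and its end is 1.94 Mb from the start of Taar2. Its level was 82.9, 86.8 and 90.4 CPM in wild type, 81.0, 86.3 and 74.5 CPM in heterozygous and 73.1, 86.2 and 74.1 CPM in homozygous mice. Homozygous replicate 2 lay among the wild type mice, and the other homozygous mice were below them. The log2 fold change was -0.16 in homozygous (SE 0.07, unadjusted p = 0.0317, edgeR adjusted p = 0.498) and -0.11 in heterozygous mice (SE 0.07) against wild type. In contrast to Fkbp5 and Tsc22d3, it was farther from 0 in homozygous mice without the 3 libraries, at -0.25 with 1 homozygous mouse left.

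Klf9, a Krüppel-like transcription factor on chromosome 19 (23141226 to 23168134, plus strand), was at 44.7, 43.3 and 56.8 CPM in wild type, 47.0, 47.0 and 42.5 CPM in heterozygous and 39.5, 47.2 and 42.7 CPM in homozygous mice. Wild type replicate 3 was its highest mouse and the genotypes overlapped. Errfi1, a feedback inhibitor of the epidermal growth factor receptor on chromosome 4 (150853919 to 150868892, plus strand), was at 53.4, 54.8 and 62.6 CPM in wild type, 63.1, 54.3 and 52.2 CPM in heterozygous and 49.8, 57.5 and 57.0 CPM in homozygous mice. Pdk4, a kinase that restrains glucose oxidation and lies on chromosome 6 (5483351 to 5496309, minus strand), was at 11.4, 13.4 and 11.7 CPM in wild type, 14.3, 11.2 and 8.83 CPM in heterozygous and 9.86, 11.7 and 11.2 CPM in homozygous mice. None of the 3 separated the genotypes. In homozygous against wild type mice their log2 fold changes were -0.16 (95% interval -0.36 to 0.03) for Klf9, -0.06 (-0.22 to 0.11) for Errfi1 and -0.17 (-0.47 to 0.14) for Pdk4. In heterozygous against wild type mice they were -0.08, -0.01 and -0.10.

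**Figure D2:**
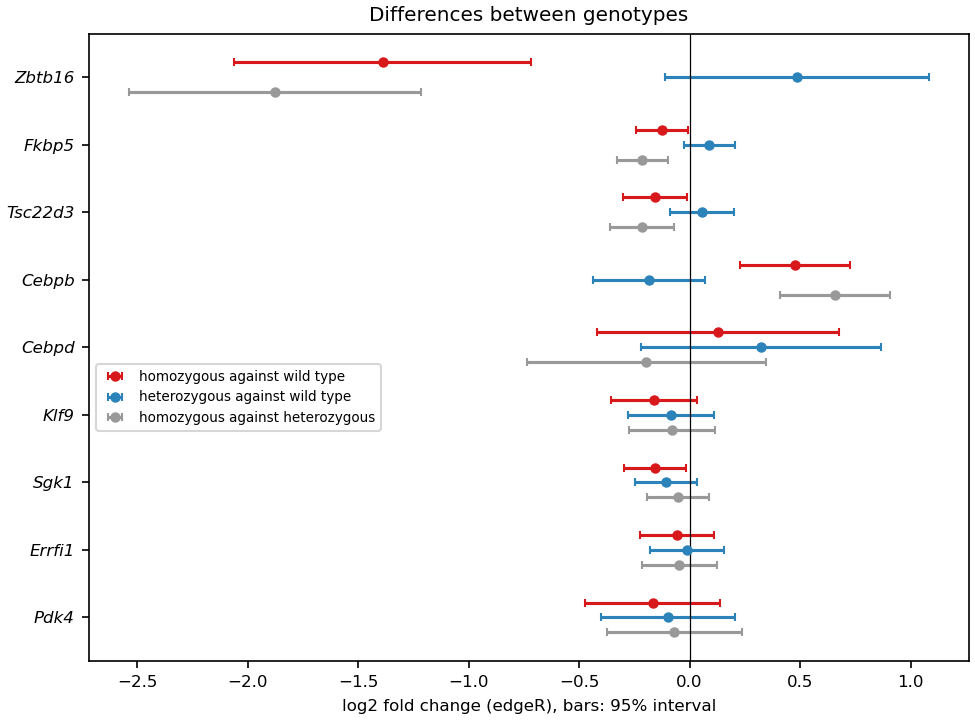
Log2 fold change of each gene (horizontal axis, points) with its 95% interval (bars) in the 3 comparisons between genotypes. Homozygous against heterozygous mice, in grey, is the comparison that chose Zbtb16 and Cebpb and is shown as a description, and Zbtb16 at -1.39 and Cebpb at 0.48 lie farthest from 0 among the comparisons of homozygous with wild type mice.

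Counted together, 0 of the 9 genes passed the adjusted threshold in homozygous against wild type mice by edgeR, where 0.0495% of all genes tested did. DESeq2 with default settings called 0 of the 5 genes to which it gave an adjusted p, and its filter on mean counts left Zbtb16, Cebpb, Cebpd and Pdk4 without one. With that filter off, an alternative chosen after seeing the data, DESeq2 called 1 of the 9, Cebpb (adjusted p = 0.0456), and Zbtb16 had an adjusted p of 0.302. An unadjusted p under 0.05 was found by edgeR for 5 of the 9, Cebpb higher and Zbtb16, Fkbp5, Tsc22d3 and Sgk1 lower, beside 9.26% of all genes, and by DESeq2 for 4 of the 9, the same genes without Fkbp5. Homozygous and wild type mice did not overlap in 3 of the 9 genes, against 15.4% of all genes. The 3 were Zbtb16, Fkbp5 and Cebpb, the last by 21.17 against 21.16 CPM. The choice of Zbtb16 and Cebpb used the homozygous libraries, so nothing is read from the counts that include them. The median log2 fold change was -0.16 over the 9 genes, 2 higher and 7 lower, and -0.00057 over all genes tested.

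In heterozygous against wild type mice, 0 of the 9 passed the adjusted threshold by edgeR or DESeq2 (0.00495% of all genes did by edgeR), 0 had an unadjusted p under 0.05 by edgeR or DESeq2 (3.25% of all genes by edgeR) and 0 did not overlap (8.68% of all genes). The median was -0.01, with 4 genes higher and 5 lower. Homozygous and heterozygous mice did not overlap in 4 of the 9 genes, Cebpb higher and Zbtb16, Fkbp5 and Tsc22d3 lower, where 14.1% of all genes did not. Nothing is read from that count, because Zbtb16 and Cebpb were chosen by this comparison. The 3 comparisons share libraries, so that a high or low group enters more than one of them.

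The 9 genes did not move as one group across mice. Heterozygous replicate 1 was the highest of the 9 mice for 4 genes (Zbtb16, Cebpd, Errfi1 and Pdk4) and wild type replicate 3 for another 3 (Tsc22d3, Sgk1 and Klf9). Homozygous replicate 2 was lowest for Zbtb16, Fkbp5 and Tsc22d3 but highest for Cebpb, and homozygous replicate 1 was lowest for Sgk1, Klf9 and Errfi1. Over the 9 libraries, which share genotype groups and tissue makeup, 25 of the 36 pairs of genes had a positive Pearson correlation of log2 CPM, with a median r of 0.15. The pairs ranged from -0.91 for Cebpb and Tsc22d3 to 0.94 for Zbtb16 and Fkbp5. Sgk1 and Klf9 (0.78), Klf9 and Errfi1 (0.78) and Cebpd and Pdk4 (0.72) were also high. For deviations from genotype means, 26 of the 36 pairs were positive, with a median r of 0.21. These are descriptions over 9 mice.

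**Figure D3:**
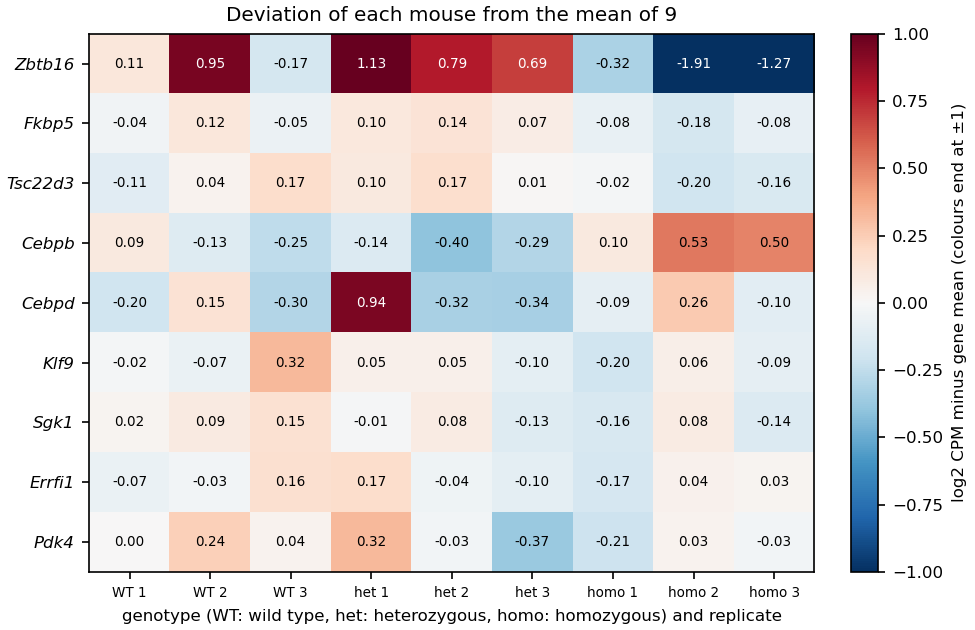
Log2 CPM of each gene in each mouse minus the mean of that gene over the 9 mice, as colours and numbers, with mice in columns by genotype and replicate. Zbtb16 runs from -1.91 to 1.13, Cebpb is highest in homozygous replicates 2 and 3, and Cebpd stands out in heterozygous replicate 1 at 0.94.

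Genes whose log2 CPM followed that of Zbtb16 most closely were sought among 16158 genes outside the set with a mean of at least 1 CPM. The 5 nearest were Gabpb2 (Pearson r = 0.970 over the 9 libraries), Kank3 (0.966), Panx3 (0.962), Xpc (0.954) and Swt1 (0.951). All 5 varied far less than Zbtb16. Kank3, for example, was at 23.9, 25.3 and 23.4 CPM in wild type, 25.3, 25.3 and 24.8 CPM in heterozygous and 22.5, 20.5 and 22.6 CPM in homozygous mice. Within the set Fkbp5 was the nearest (r = 0.937, Spearman's rho 0.933), Tsc22d3 followed (r = 0.731), and Cebpb ran opposite (r = -0.869). These correlations include the difference between genotypes by which Zbtb16 and Cebpb were chosen, in opposite directions. For deviations from genotype means, r with Zbtb16 was 0.80 for Fkbp5, 0.31 for Tsc22d3 and -0.45 for Cebpb.

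**Figure D4:**
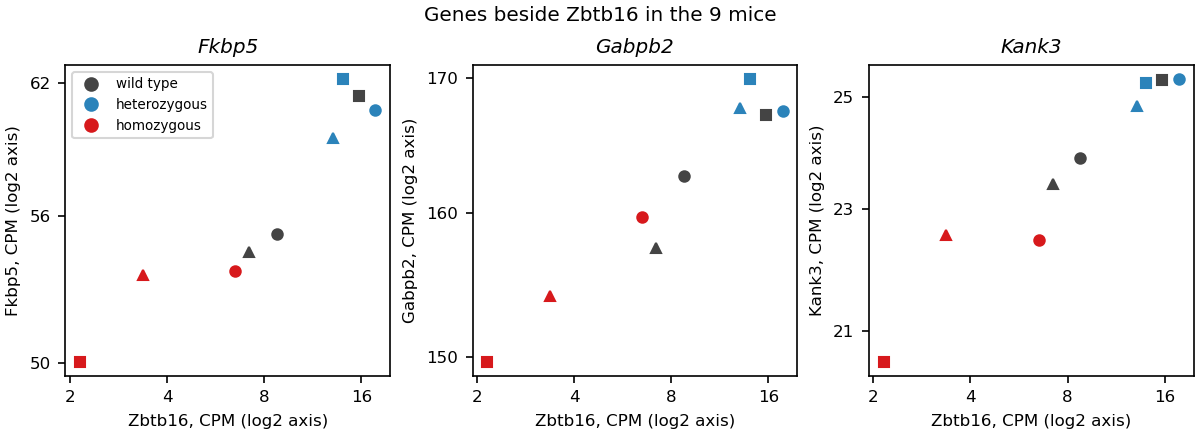
CPM of Fkbp5, Gabpb2 and Kank3 (vertical log2 axes) against CPM of Zbtb16 (horizontal log2 axis), 1 point for each of the 9 mice, coloured by genotype and shaped by replicate number. Homozygous replicate 2 is lowest on both axes in each panel, and the vertical axes span a far smaller fold range than the horizontal one.

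Per kilobase of exon, the only scale on which levels of different genes are compared here, the median over the 9 mice was highest for Tsc22d3 (19.95 CPM per kb), followed by Sgk1 (16.9), Errfi1 (15.3), Cebpb (12.02), Klf9 (9.29), Fkbp5 (5.83), Cebpd (4.53), Pdk4 (3.26) and Zbtb16 (1.66). Neighbours in this order overlapped in their ranges over mice, except Klf9 (8.19 to 11.8) and Fkbp5 (5.29 to 6.56).

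The receptor itself and its partners were measured in the same libraries. Nr3c1 was at 76.1, 77.0 and 77.2 CPM in wild type, 79.5, 84.3 and 76.3 CPM in heterozygous and 69.6, 77.1 and 66.4 CPM in homozygous mice. Homozygous replicates 1 and 3 were below the rest, and homozygous replicate 2 was level with wild type. The log2 fold change of Nr3c1 was -0.11 (SE 0.06, edgeR adjusted p = 0.568) in homozygous and 0.06 (SE 0.06) in heterozygous mice against wild type, and -0.17 (SE 0.06, edgeR adjusted p = 0.301) in homozygous against heterozygous mice. Nr3c2, the mineralocorticoid receptor, which corticosterone also binds, ranged from 16.1 to 19.0 CPM. Hsd11b1, which regenerates active hormone in cells, was low at 0.580 to 1.71 CPM, and Hsd11b2, which inactivates it, had 3 to 11 reads (0.106 to 0.402 CPM), near the floor.

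Of 10 genes of receptors, hormone-converting enzymes, chaperones and coactivators, 0 were called in any comparison by edgeR or by DESeq2 with or without its filter on mean counts. In both comparisons with wild type, 0 had an unadjusted p under 0.05 by either tool, beside 9.26% of all genes in homozygous and 3.25% in heterozygous mice by edgeR. In homozygous against heterozygous mice 5 of the 10 did by edgeR, beside 10.4% of all genes. Nr3c1 was lower, and the cochaperones Ptges3 (log2 fold change 0.20, edgeR adjusted p = 0.361) and Fkbp4 (0.12, adjusted p = 0.366) and the coactivators Ncoa1 (0.11, adjusted p = 0.403) and Ncoa2 (0.12, adjusted p = 0.407) had higher values. With vomeronasal receptor expression as a covariate, 0 of the 10 were higher and 1 lower at an unadjusted p under 0.05 by edgeR. Without the 3 libraries with vomeronasal reads, which leaves 1 homozygous mouse, the log2 fold change of Nr3c1 was -0.21.

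A list of 29 other glucocorticoid-responsive genes gives the wider pathway. In homozygous against wild type mice 0 of the 29 were called by edgeR (0.0495% of all genes were), and the 7 with an unadjusted p under 0.05 by edgeR (6 by DESeq2) were all lower, beside 9.26% of all genes with such a p. DESeq2 with default settings called 0 of the 19 with an adjusted p, and 1 of the 29, Hif3a, with its filter on mean counts off. The median of the 29 was -0.05, 11 higher and 18 lower, and 8 had groups that did not overlap, beside 15.4% of all genes. Without the 3 libraries with vomeronasal reads, which leaves homozygous replicate 1 alone, Lcn2 had a log2 fold change of 1.33. With all 9 libraries it was 0.48. Lcn2 was at 78.9 CPM in that mouse, and at 21.5 and 29.8 CPM in homozygous replicates 2 and 3. Hif3a, a hypoxia-inducible factor subunit, differed most, at 9.76, 10.02 and 11.5 CPM in wild type, 10.3, 11.3 and 10.1 CPM in heterozygous and 8.21, 3.82 and 6.69 CPM in homozygous mice. Its homozygous mice were below all others, with homozygous replicate 2 lowest, as for Zbtb16. Its log2 fold change was -0.73 (SE 0.19, unadjusted p = 0.00128, edgeR adjusted p = 0.295), and -0.34 without the 3 libraries with vomeronasal reads, with 1 homozygous mouse left. The kinase Map3k6 was at 7.23 to 8.28 CPM in homozygous and 9.28 to 10.8 CPM in wild type mice (log2 fold change -0.34, edgeR adjusted p = 0.413, and -0.28 without the 3 libraries). The phosphatidate phosphatase Lpin1 (-0.11), the phosphoinositide 3-kinase subunit Pik3r1 (-0.15) and annexin A1, Anxa1 (-0.24), came next, with unadjusted p-values of 0.0177, 0.0188 and 0.0217.

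In heterozygous against wild type mice 0 of the 29 were called by edgeR or DESeq2. An unadjusted p under 0.05 was found for 2 by edgeR, beside 3.25% of all genes, and for 2 by DESeq2. All of these had higher values. They were by edgeR the small GTPase Rhob (log2 fold change 0.16) and glutamine synthetase, Glul (0.10), each with an adjusted p of 1.00, and the median of the list was 0.01. In homozygous against heterozygous mice 0 were called by edgeR, beside 0.114% of all genes. DESeq2 called 0 of the 22 with an adjusted p by default, and 2 of the 29, Hif3a and Map3k6, with its filter on mean counts off. There 12 of the 29 had an unadjusted p under 0.05 by edgeR, 10 lower and 2 higher, beside 10.4% of all genes, and the median was -0.10. With vomeronasal receptor expression as a covariate, 10 were lower and 0 higher at such a p by edgeR. Map3k6 (-0.50, edgeR adjusted p = 0.123) and Hif3a (-0.75, adjusted p = 0.166) had the smallest p-values, followed by Pik3r1 (-0.18, adjusted p = 0.271), the phosphatase Dusp1 (0.24, adjusted p = 0.310) and Lpin1 (-0.11, adjusted p = 0.342). Without the 3 libraries with vomeronasal reads, which leaves 1 homozygous mouse, the log2 fold changes were -0.33 for Map3k6 and -0.38 for Hif3a. Dusp1, a MAP kinase phosphatase that is also an immediate early gene, was highest in homozygous replicate 2 at 76.3 CPM, as was Cebpb.

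**Figure D5:**
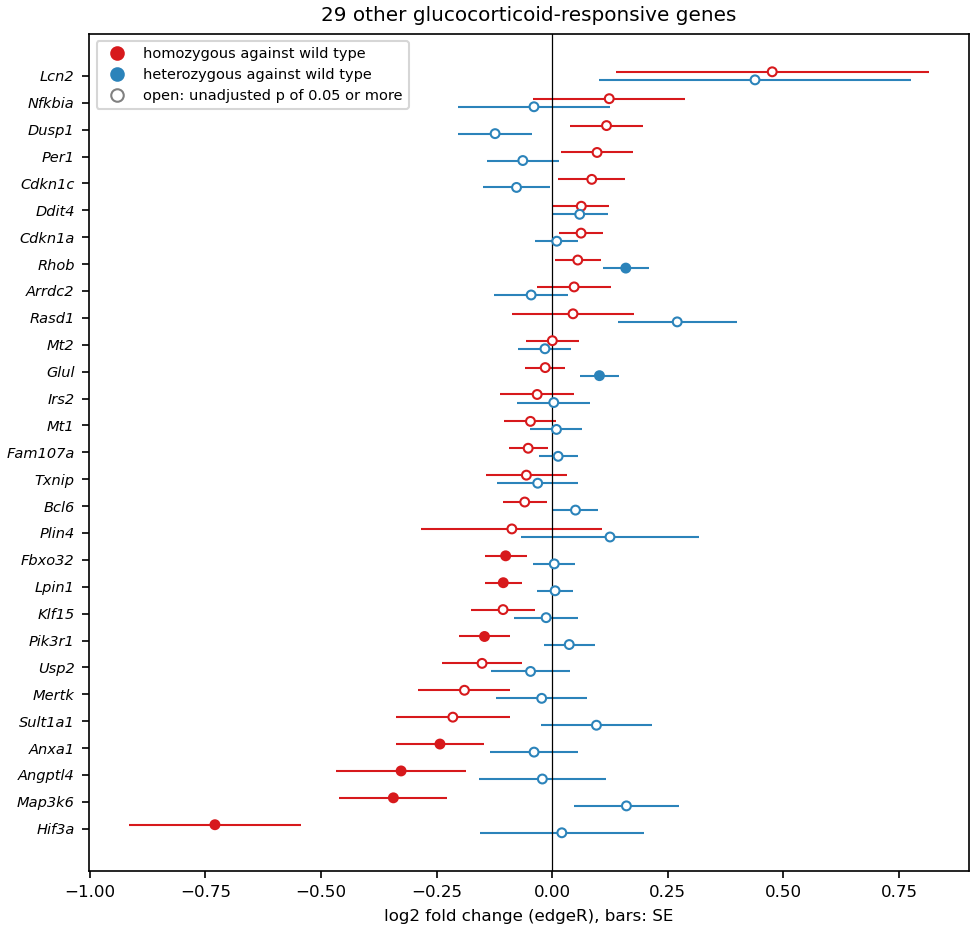
Log2 fold change (horizontal axis) with its SE (bars) for 29 other glucocorticoid-responsive genes in homozygous and heterozygous against wild type mice, filled where the unadjusted p is under 0.05. The 7 filled points for homozygous mice lie below 0, with Hif3a at -0.73, and the 2 for heterozygous mice, Rhob at 0.16 and Glul at 0.10, lie above it.

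Paralogs of the 9 genes were counted as well. Of 13 paralogs (of Cebpb, Pdk4, Sgk1, Tsc22d3 and Klf9) 0 were called in any comparison by edgeR or by DESeq2 with or without its filter on mean counts. Cebpa had an unadjusted p under 0.05 in homozygous against wild type mice (log2 fold change 0.16, edgeR adjusted p = 0.528), beside 9.26% of all genes by edgeR. It was the only paralog with such a p in the 3 comparisons by edgeR, and DESeq2 also gave 1.

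Summed marker genes of other cell types were also compared. Homozygous and wild type sums did not overlap for the endothelial, mature olfactory neuron and muscle markers. They overlapped for the other lists named here. The 3 endothelial markers (Pecam1, Cdh5 and Kdr) summed to 70.8 to 70.9 CPM in wild type, 68.9 to 76.7 CPM in heterozygous and 60.7 to 64.99 CPM in homozygous mice, and 3 of 3 had lower values in homozygous than in wild type mice. The 6 connective tissue markers summed to 11468 to 13194, 12165 to 14343 and 11231 to 12266 CPM, with 5 of 6 lower in homozygous than in wild type mice. The 7 immediate early genes summed to 128 to 150 CPM in wild type, 120 to 152 CPM in heterozygous and 133 to 209 CPM in homozygous mice, with 6 of 7 higher in homozygous than in wild type mice. Homozygous replicate 2, the library with most vomeronasal reads, was at 209 CPM. Homozygous replicates 1 and 3, at 133 and 141 CPM, lay within the wild type range. The 11 clock genes summed to 745 to 767 CPM in wild type, 745 to 781 CPM in heterozygous and 711 to 753 CPM in homozygous mice. Of these 8 were lower and 3 higher in homozygous than in wild type mice. Neutrophil markers (5 of 5) and ciliated cell markers (3 of 3) had lower values in homozygous than in wild type mice. Mature olfactory neuron markers, 7 genes, summed to 7106 to 7180 CPM in wild type, 7169 to 7655 CPM in heterozygous and 7360 to 7891 CPM in homozygous mice. Of these genes 6 of 7 were higher in homozygous than in wild type mice. An unadjusted p under 0.05 by edgeR was found for 3 of the 7, beside 9.26% of all genes. The 5 sustentacular markers summed to 4787 to 4916, 4515 to 4852 and 4498 to 4828 CPM, and 2 of 5 were higher in homozygous than in wild type mice. One of them, Ugt2a1, was the only gene called by edgeR in these lists, lower in homozygous than in heterozygous mice (log2 fold change -0.29, edgeR adjusted p = 0.0383) and at -0.28 against wild type (adjusted p = 0.0799). The part of these in the values of Zbtb16, Hif3a and Cebpb was not tested. Muscle markers, which could come from tissue beside the epithelium, summed to 3.18 to 4.42 CPM and adipocyte markers to 0.338 to 0.732 CPM over the 9 mice. Bone and cartilage markers were far more abundant. These 5 genes summed to 726 to 759 CPM in wild type, 752 to 858 CPM in heterozygous and 670 to 804 CPM in homozygous mice. Homozygous replicates 3 (670 CPM) and 2 (692 CPM) were lowest, and 3 of 5 had higher values in homozygous than in wild type mice. Their part in the values of Zbtb16 was not tested.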

How the data were processed

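Values are raw read counts per gene deposited by the authors for the 9 libraries. Reads were aligned by the authors with HISAT2 2.1.0 to mm10 (GRCm38). The methods of the study name featureCounts for counting, whereas the processing notes name HTSeq 0.6.1p1 (and Trimmomatic 0.36 and DESeq2 1.20.0), and the table ends with summary lines of HTSeq's form. The annotation and strand setting are not given in the sources used here. Rows that name no gene (40.0 to 42.6% of reads) were left out, as was the authors' normalized table.

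Genes with at least 10 reads over the 9 libraries were tested with edgeR 4.0.16 (R 4.3.3): TMM normalization, quasi-likelihood test, all 9 libraries in 1 fit by genotype, Benjamini-Hochberg adjustment over 20213 genes, threshold 0.05. CPM values use TMM effective library sizes, and 95% intervals use t quantiles. The script was tested on simulated data. Exon lengths and positions come from GENCODE M21.

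The 9 genes and all lists were chosen with earlier results of these data known. Named genes are the 9, up to 5 genes a list and comparison with the smallest unadjusted p under 0.05, Nr3c1, Nr3c2, Hsd11b1 and Hsd11b2, and the 5 nearest to Zbtb16. Angptl4 and Fbxo32 also had p under 0.05 in homozygous against wild type mice. No 2 libraries of the same genotype agreed within sampling noise. Separate mice are given by the labels only as separate samples. Alternatives were DESeq2 1.42.0 size factors and defaults, other filters on low counts, a replicate block, a vomeronasal covariate, only the 6 libraries compared, and leaving out libraries. DESeq2 without independent filtering was added after seeing the data.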

Additional observations from a re-analysis of the deposited data

How the results depend on the processing

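Calls were counted for 4 lists, for the 9 genes in the comparisons with wild type only. The count stayed at 0 under the alternatives run, except as follows, and the 0 of DESeq2 with default settings covers only genes with an adjusted p (5 of the 9 and 19 of the 29 other targets in homozygous against wild type mice). DESeq2 without independent filtering, chosen after seeing the data, called 1 of the 9 (Cebpb, adjusted p = 0.0456) and 1 of the 29 (Hif3a, 0.0460) in that comparison and 2 of the 29 (Hif3a and Map3k6) in homozygous against heterozygous mice. Of the 9 genes, 1 (Zbtb16, edgeR adjusted p = 0.0364) was called in homozygous against wild type mice without homozygous replicate 1, beside 12 of 20105 genes. The count for the 9 genes thus ran from 0 to 1 over left-out libraries. Of the 29 other targets, 1 (Lcn2, log2 fold change 1.33, edgeR adjusted p = 0.00981) was called in the same comparison without the 3 libraries with vomeronasal reads, which leaves 1 homozygous mouse, the highest in Lcn2 at 78.9 CPM. Without heterozygous replicate 3, 2 of the 29 (Anxa1 and Pik3r1) were called in homozygous against heterozygous mice, a range of 0 to 2. Calls over all genes rose as well in that setting, to 190 of 20103 from 23 of 20213. The cause was not tested.

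Directions turned only for small or single-library differences. Cebpd was -0.43 in homozygous and -0.011 in heterozygous against wild type mice with the vomeronasal covariate, and -0.23 in heterozygous mice without the 3 libraries. Over left-out libraries, heterozygous against wild type values ran from -0.23 to 0.54 for Cebpd, -0.015 to 0.13 for Tsc22d3, -0.16 to 0.049 for Klf9, -0.097 to 0.063 for Errfi1 and -0.29 to 0.057 for Pdk4. In homozygous against wild type mice Errfi1 ran from -0.098 to 0.020, Zbtb16 from -1.94 to -0.97 and Cebpb from 0.40 to 0.61. Whether replicate numbers pair the mice was not settled. Correlations of deviations from genotype means between same-numbered libraries ran from -0.15 to 0.29. They were highest between homozygous and heterozygous replicates 2 (0.24) and 3 (0.29). Libraries of different numbers were not compared. With a replicate block, Zbtb16 was at -1.40 in homozygous against wild type mice (edgeR adjusted p = 0.177) and 0 genes of each list were called, while over all genes the calls were 12, 0 and 41 in place of 10, 1 and 23. DESeq2 called 65, 3 and 122 genes overall with default settings and 48, 3 and 123 without independent filtering. With 53 to 514 reads, counting error is largest for Zbtb16.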
